A study of Caenorhabditis briggsae with 16 samples.

Results

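A set of 16 mature miRNA arms, of 372 counted, stood at least 1.5-fold higher late than early in an hourly larval time course of the nematode Caenorhabditis briggsae and had not been left out by family name. Each miRNA is cut from a hairpin precursor into a duplex of a 5p and a 3p arm. One arm, the guide, is usually kept in an Argonaute protein and directs it to target mRNAs, while the other, the passenger strand, is usually short-lived. In C. elegans many miRNAs change in level from one larval stage to the next and some control the timing of development. The time course asks how the level of each miRNA changes from hour to hour in a related species.

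Small RNAs were sequenced from whole wild-type animals of the strain AF16, pooled from synchronized L1 larvae that had been placed on food at 25°C without any treatment. A library was made at every hour from 18 to 33 h after plating, which gives 16 libraries, 1 per hour and no replicates. The 4 libraries of 30 to 33 h were called late and the 4 libraries of 18 to 21 h early. All groups share the strain, the food and the temperature, and differ in the hour of collection alone as far as the labels say. Larval stages are not given in the labels, and animals of a pool can differ in developmental time. In whole animals, more cells of a type and more of a miRNA per cell cannot be told apart.

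The arms were selected on their measured values. Each count was taken as a share of its library's total and brought to the mean library size, and this normalized count is the unit of every level below, with values of a window listed in order of hour. Of the 254 arms that averaged 100 or more counts, 58 (22.8%) had a mean over 30 to 33 h of at least 1.5 times the mean over 18 to 21 h. Leaving out by name several families and all near-duplicate rows kept 73 of the 254 arms eligible, and 16 of these passed the threshold. The late-over-early ratios below therefore describe the choice and carry no test. They ranged from 1.53 to 8.35 with a median of 2.15, beside a median of 0.838 over the 254 arms, and 9 of them were at least 2. The arms just inside the threshold were Mir-64-o2_5p (1.74), Mir-34_5p* (1.66) and Mir-238_5p* (1.53), and those just outside it were Mir-64-o4_3p (1.47), Mir-73-P3a_3p (1.44) and Mir-64-o2_3p* (1.35).

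The 16 arms come from 12 hairpins of 11 families, with 8 arms from the 5p and 8 from the 3p side. An asterisk in the MirGeneDB name, which marks most passenger strands, was carried by 5 of the 16 arms (31.2%) and by 79 of those 254 arms (31.1%). Together the 16 arms took 3.34% of all miRNA counts at 30 to 33 h and 1.72% at 18 to 21 h. Their mean levels spanned from 113 (Mir-252-P2_3p*) to 132251 (Mir-64-o2_5p), and the lowest count of any of them in any library was 17 reads. In 15 of the 16 arms every late library lay above every early one, which the rule favours, and the exception was Mir-238_5p*. No share over the 254 arms stands beside this count, and nothing is read from it.

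Library totals were 9588599 to 10796885 counts in the late and 10084311 to 15866144 counts in the early libraries, and whether this difference in depth had a part in the ratios was not tested. The 21 h library stood farthest from its neighbours, with a median absolute log2 difference of 0.249 from the mean of the hours beside it, against 0.0653 to 0.162 in the other hours. Without it the ratios were 1.30 (Mir-238_5p*) to 8.96 (Mir-789_5p), and 15 of the 16 arms still reached 1.5-fold. Arms known from muscle (Mir-1_3p), neurons (Mir-124-P10_3p) and the Let-7 family (Let-7-P5_5p) were present in every library, with at least 19770, 388 and 13474 counts.

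**Figure D1:**
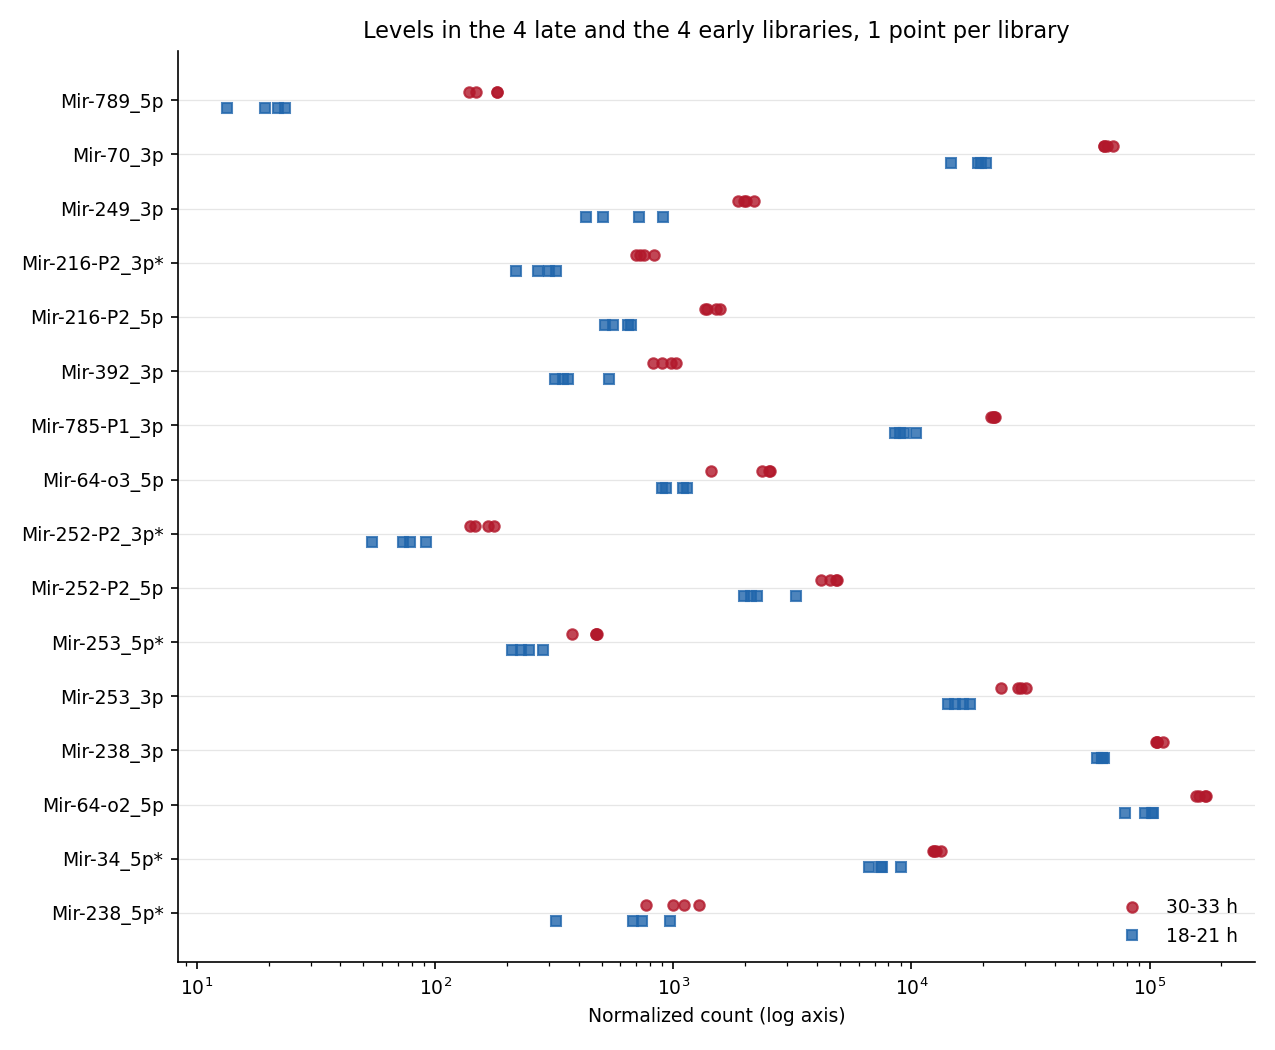
Normalized counts (log axis) of the 16 arms, 1 point per library, with the 4 late libraries (circles) above the 4 early ones (squares) in each row and arms ordered by their ratio from 8.35 to 1.53. Late and early points are apart in 15 arms, which the rule favours. They overlap in Mir-238_5p*, whose 30 h value of 766 lies below its 20 h value of 970.2.

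The 8 libraries from 22 to 29 h had no part in the ratio, although they entered the mean over all 16 libraries that set the count minimum, and they were used to ask whether the arms also rose between the 2 windows. A linear trend in hours was fitted to the counts of all 311 arms that reached 10 counts in 8 or more libraries, with the scatter of the 8 hours about the line as the error (edgeR, Benjamini-Hochberg over 311 arms). Of the 16 arms, 8 were called rising and 0 falling, whereas over all arms 47 (15.1%) were called rising and 91 (29.3%) falling. On the 8 window libraries alone 15 of the 16 arms reached 100 counts on average, and 7 of these 15 were called rising and 0 falling. The remaining arm, Mir-789_5p, averaged 76.2 counts there and entered only through its counts at 22 to 29 h, so its trend is a description. Without adjustment 11 of the 16 arms rose at p under 0.05 and 0 fell, beside 53 rising and 109 falling of the 311 arms. DESeq2 called 13 of the 16 rising and 0 falling, beside 76 rising and 69 falling of all arms. It applied its own median-of-ratios size factors in place of library totals, so it changed the scaling as well as the tool. Differences between the slopes of single arms were not tested. The slope was above 0 in 14 of the 16 arms with a median of 0.065 log2 per hour, against 119 of 311 arms and a median of -0.037. Neighbouring hours resemble each other and the 22 to 29 h libraries adjoin both windows, so the trend is not wholly separate from the choice of the arms. Among the 42 other arms of the 254 whose ratio reached 1.5, 25 were called rising and 0 falling.

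These values are shares of a library, and the scaling moves them. Over 22 to 29 h the median change of all arms was -0.26 (log2) with library totals, -0.090 with TMM factors and -0.014 with median-of-ratios size factors. The calls over all arms were 47 rising and 91 falling, 59 rising and 68 falling, and 70 rising and 53 falling under these scalings in turn, and 8, 12 and 13 of the 16 arms rose while 0 fell. The calls for Mir-785-P1_3p and both arms of Mir-216-P2 held without any 1 of the 8 libraries. A further 4 calls did not: Mir-249_3p lost it without the 22, 28 or 29 h library, Mir-252-P2_3p* without the 23, 28 or 29 h library, Mir-34_5p* without the 23 or 29 h library, and Mir-238_3p without the 23, 24, 28 or 29 h library. The count of called arms fell to 5, 5 and 4 of 16 without the 23, 28 or 29 h library.

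**Figure D2:**
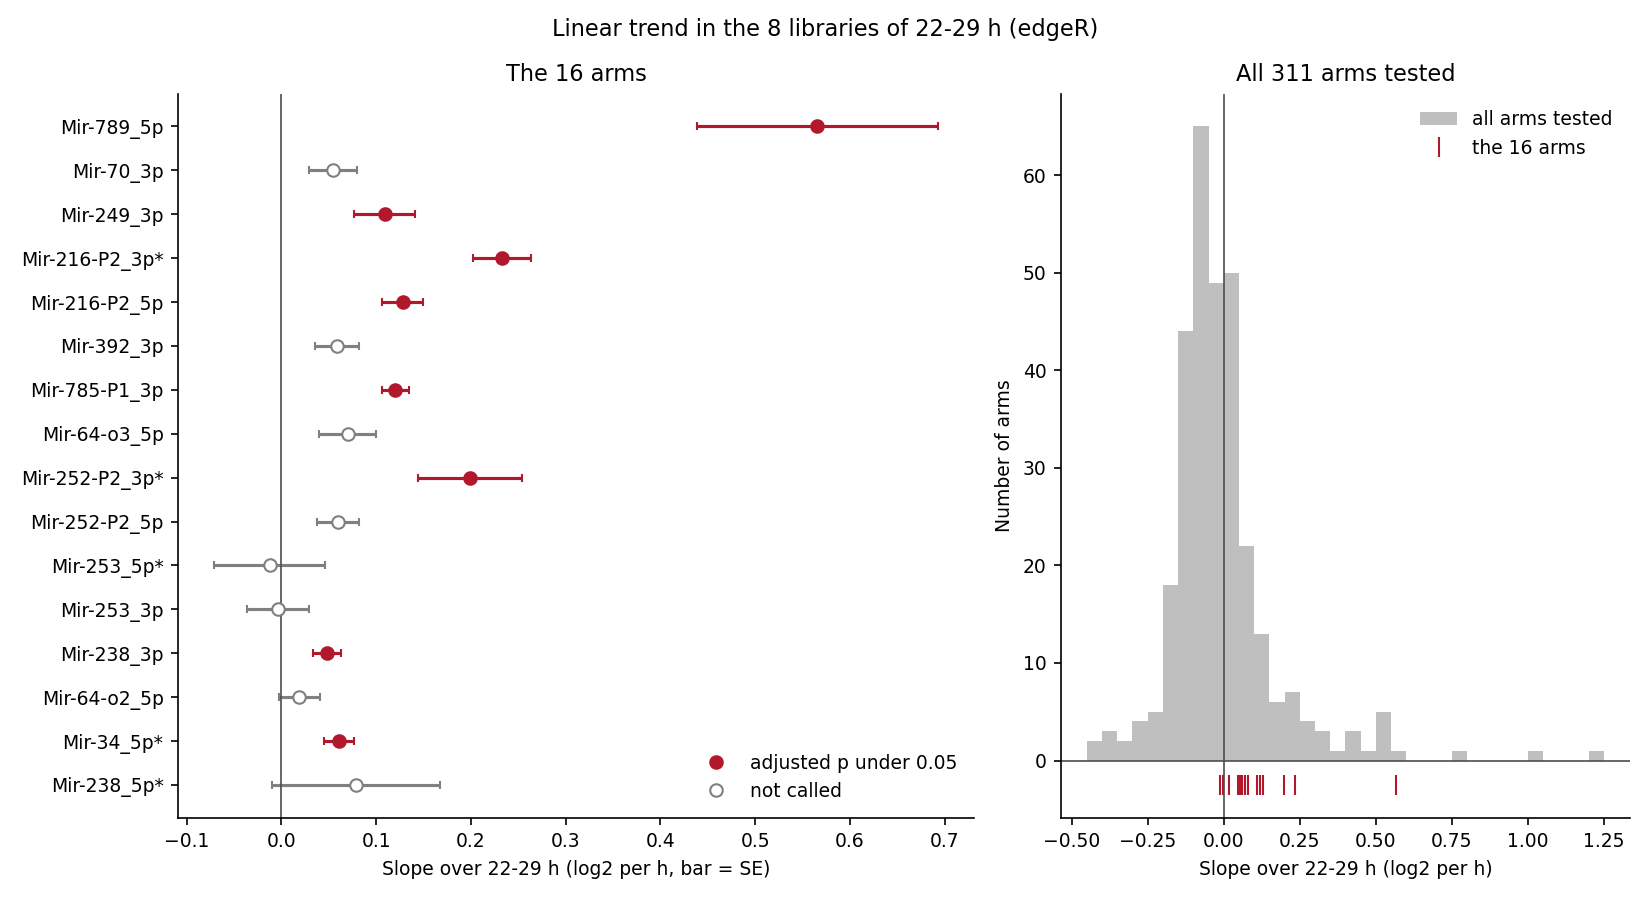
Slopes of the linear trend over the 8 libraries of 22 to 29 h (log2 per hour). Left, the 16 arms with their SE, filled where the adjusted p was below 0.05 (8 arms, with Mir-789_5p shown as a description). Right, the number of arms per slope for all 311 arms tested, whose median was -0.037, with the 16 arms as ticks below the axis, 14 of them above 0.

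The hairpin of Mir-216-P2, a family named after a vertebrate miRNA known for its abundance in the pancreas, had both arms among the 16. Its 5p arm was at 1380.3, 1507, 1565 and 1352 at 30 to 33 h, against 558, 643, 661 and 517 at 18 to 21 h, a ratio of 2.44. From 22 to 29 h it was at 625, 722, 798, 766, 814, 1015, 961 and 1307, a rise of 0.13 ± 0.021 log2 per hour (SE, adjusted p = 0.0029). The lowest late value was 2.05 times the highest early one. The passenger strand Mir-216-P2_3p* was at 832, 725, 695 and 755 in the late libraries and 320.2, 300.5, 271 and 219 in the early ones, a ratio of 2.71. Its level over 22 to 29 h was 252, 422, 463, 429.8, 549, 707, 893 and 843, which is a rise of 0.23 ± 0.031 log2 per hour (adjusted p = 0.0010). The passenger strand had its highest value at 28 h and lay below that in all late libraries, while the 5p arm had its highest value at 32 h. The 5p arm held between 51.8% (28 h, exact 95% interval 49.5 to 54.1%) and 71.2% (22 h, 68.4 to 74.0%) of the counts of the hairpin. Such a share does not depend on the library total, and its interval covers counting error only.

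Mir-252-P2, of a family shared with insects, also had both arms among the 16, and with library totals the passenger strand passed the trend test and the 5p arm did not. Mir-252-P2_5p was at 4177, 4556, 4855 and 4834 late and 3281, 2114, 2248 and 1983 early, a ratio of 1.91, and the 18 h value was the highest of the early ones. Between the windows it was at 2501, 2701, 2804, 2528, 2521, 2712, 3239 and 3635, and its slope of 0.060 ± 0.022 log2 per hour did not pass the test (adjusted p = 0.058). It passed with TMM factors (0.084, adjusted p = 0.035), median-of-ratios factors (0.095, adjusted p = 0.020) and DESeq2 (0.095, adjusted p = 0.0043), with adjusted p from 0.0043 to 0.30 over all alternatives tried. Only the 29 h value of these 8 exceeded the highest early value. The passenger strand Mir-252-P2_3p*, the least abundant of the 16 arms, was at 140.4, 147, 167 and 177 at 30 to 33 h, against 78.7, 54.3, 73.6 and 91.6 at 18 to 21 h, a ratio of 2.12. It stood at 96.9, 63.7, 57.2, 74.2, 102, 136, 189 and 167 from 22 to 29 h, and this rise passed the test (0.20 ± 0.055 log2 per hour, adjusted p = 0.020). The passenger strand was lowest of these 8 hours at 24 h and highest at 28 h, 3.31-fold apart (95% interval 2.51 to 4.40, counting error only). The 5p arm held 94.5% to 98.0% of the counts of the hairpin in the 16 libraries.

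Mir-253 showed a different course, with high levels near 23 to 25 h and again from 29 or 30 h. The 3p arm was at 30332, 28888, 28005 and 23653 at 30 to 33 h, against 16535, 15251, 14207 and 17667 at 18 to 21 h, a ratio of 1.74. In the hours between it was at 15678, 19154, 21511, 21487, 19229, 14888, 15908 and 20612. Its levels at 22, 27 and 28 h lay within the range of the early libraries, and the highest and lowest of these 8 hours (24 and 27 h) differed 1.44-fold (95% interval 1.41 to 1.48). The passenger strand Mir-253_5p* was at 473, 477, 474 and 375 late and 210.4, 282, 248 and 230.2 early, a ratio of 1.85. In the 8 hours between the windows it was at 279.7, 392, 382, 378, 283, 202, 229 and 452, and its 27 h value was its lowest of all 16 libraries. The step from 28 to 29 h was its largest, 1.98-fold (1.67 to 2.34), and that of the 3p arm came 1 h later, from 29 to 30 h, 1.47-fold (1.44 to 1.501). The linear slope over 22 to 29 h passed the test in neither arm (-0.0036 ± 0.033 log2 per hour, adjusted p = 0.93, and -0.013 ± 0.058 log2 per hour, adjusted p = 0.88). Their sign was not settled, since the slopes were above 0 with TMM factors, median-of-ratios factors and DESeq2 (0.023 to 0.034 for Mir-253_3p and 0.015 to 0.026 for Mir-253_5p*). Both passed the test with cosine and sine terms added (0.055, adjusted p = 0.029, for Mir-253_3p and 0.090, adjusted p = 0.047, for Mir-253_5p*), and adjusted p ranged from 0.029 to 0.99 and from 0.047 to 0.98 over the alternatives tried. The 5p arm held 1.26% to 2.15% of the hairpin.

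Rhythmic accumulation was fitted with cosine and sine terms at 7 h, the period that the study used, beside a linear term over all 16 libraries. It was called for 2 of the 16 arms, both of Mir-253, and for 23 of 311 arms (7.4%). That fit included the 8 libraries by which the arms were selected, and a peak near 31 h raises the late-over-early ratio, so nothing is read from this count. The fitted amplitude was 0.29 ± 0.058 (log2, SE) for Mir-253_3p and 0.39 ± 0.092 for Mir-253_5p*, with peaks at 23.9 and 30.9 h and at 23.7 and 30.7 h. The call for Mir-253_5p* was lost without any 1 of 12 libraries and that for Mir-253_3p without the 27 or 28 h library.

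For Mir-238, which in C. elegans is needed for a normal adult lifespan, the abundant 3p arm passed the trend test with library totals and the scarce passenger strand did not. Mir-238_3p was at 113983, 106150.0, 107532 and 107712 at 30 to 33 h, against 64366, 62915, 59957 and 62893 at 18 to 21 h, a ratio of 1.74. Its largest step was from 21 to 22 h, 1.41-fold (1.39 to 1.42), where 166 of the 254 arms were higher as well. The following hours from 22 to 29 h were at 88592, 78585, 83211, 96627, 99332, 96466, 99998 and 104676. All 8 of these values lay above the early and below the late ones, and the rise was 0.048 ± 0.014 log2 per hour (adjusted p = 0.029). Mir-238_5p* was at 766, 995, 1286 and 1109 in the late and 740.2, 679, 970.2 and 322 in the early libraries, a ratio of 1.53 with overlapping windows. Its early mean contains the low 21 h value, and without that library the ratio was 1.30. In the middle of the course it was at 443, 992, 1084, 1758, 1543, 1147, 1014 and 984, highest of all 16 hours at 25 h, with a slope that did not pass the test (0.079 ± 0.089 log2 per hour, adjusted p = 0.51). Without the 22 h library this slope was -0.038, and with cosine and sine terms added it was 0.15 and passed the test (adjusted p = 0.017, range over the alternatives 0.017 to 0.65). The passenger strand held 0.498% to 1.79% of the hairpin.

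**Figure D3:**
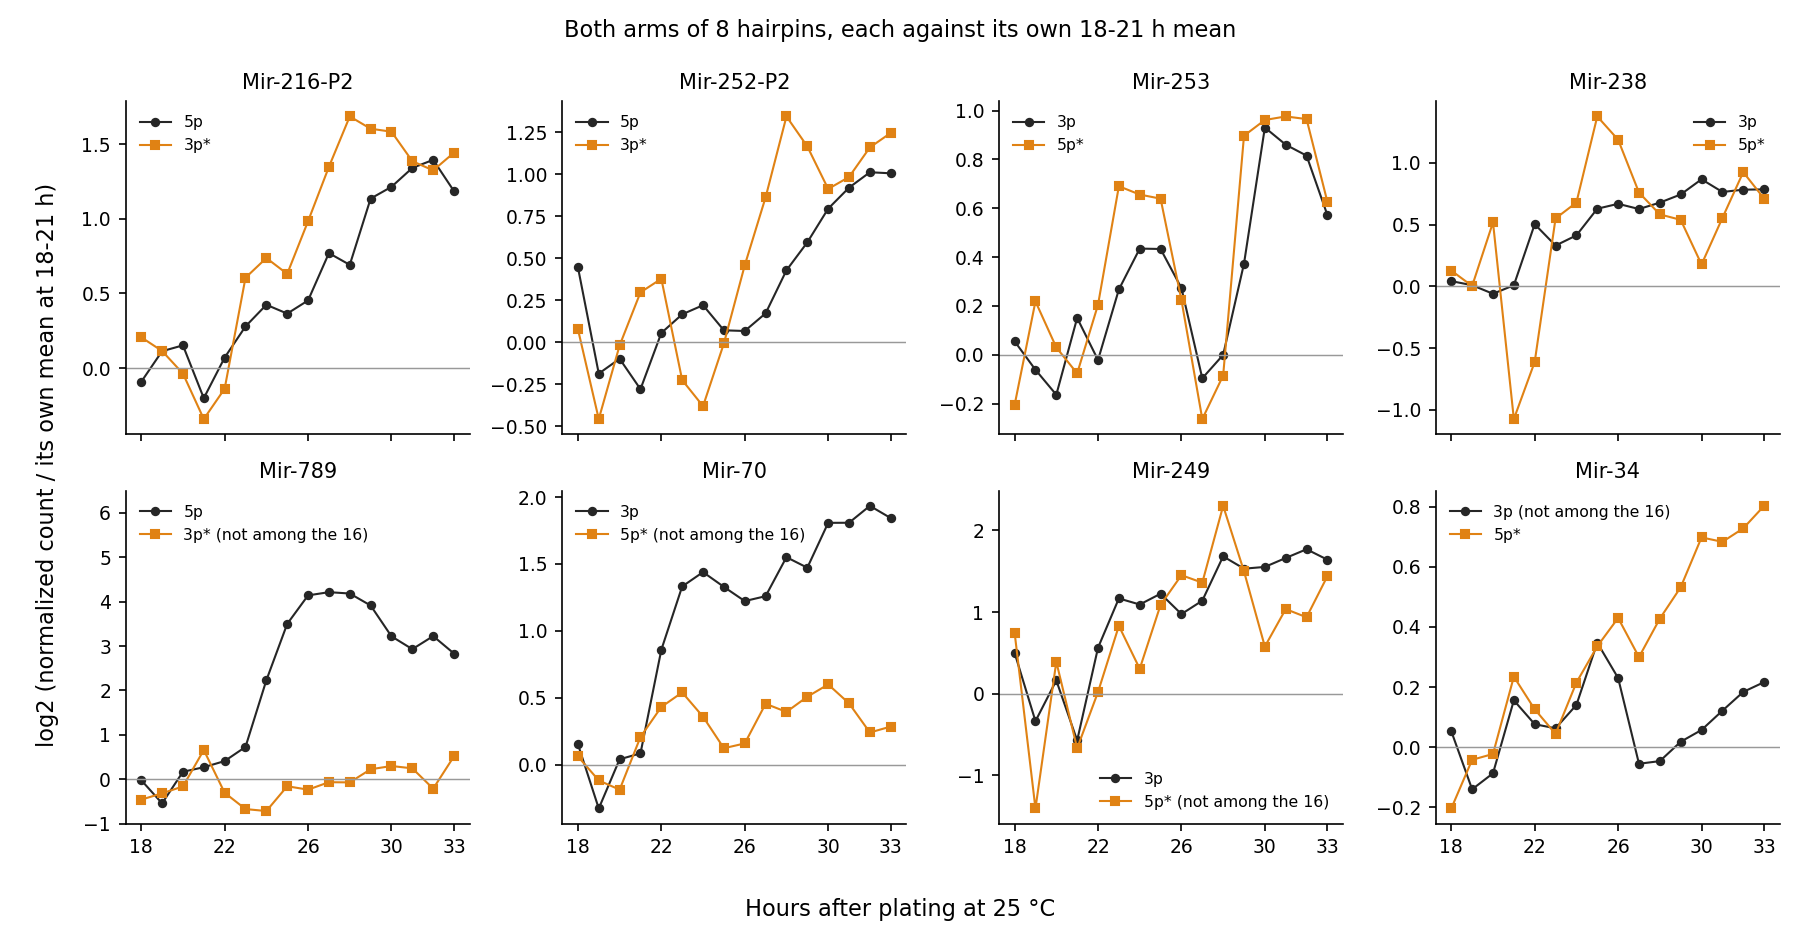
Both arms of 8 hairpins by hour, as log2 of the normalized count over the arm's own mean at 18 to 21 h (1 library per hour, no error bars). In the upper row both arms are among the 16 arms; in the lower row 1 arm is, such as Mir-789_5p, which at 27 h is at 362 while its partner is at 131.

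In the other 8 hairpins 1 arm was among the 16 and its partner was not. Among these partners Mir-392_5p* had 0 to 1 and Mir-785-P1_5p* had 0 to 3 counts per library. The other 6 partners had late-over-early ratios of 1.11 to 2.04. Of these 6, 2 were called rising over 22 to 29 h and 0 falling, beside the 15.1% of all arms called rising. All 6 partners had a higher mean late than early, but 5 lay below the fold of the rule and Mir-249_5p* below its mean count. These ratios come from the windows that the rule used. How many of all arms had a higher late mean was not computed, so nothing is read from this count.

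Mir-789_5p had the largest ratio of the 16 arms, 8.35, and was among the least abundant. It was at 182, 149, 182 and 139 at 30 to 33 h, against 19.2, 13.4, 21.9 and 23.5 at 18 to 21 h, values that rest on 120 to 141 reads per late library and 17 to 25 reads per early one. The arm was highest between the windows. From 22 to 29 h it was at 25.9, 32.3, 91.4, 220.5, 344, 362, 354 and 294, and every hour from 25 to 29 h lay above all late libraries. The mean at 26 to 29 h was 17.4 times the early mean, and the linear slope over the 8 hours was 0.57 ± 0.13 log2 per hour (SE), given without a test because these hours brought the arm over the count minimum. Its largest step, from 23 to 24 h, was 2.83-fold (1.95 to 4.18). The partner Mir-789_3p* was at 169, 163, 118 and 197 late and 99.7, 110.1, 123 and 217 early, a ratio of 1.18, and from 22 to 29 h at 111, 86.1, 83.5, 123, 117, 131, 131 and 160.3. The partner rose over these 8 hours as well, by 0.099 ± 0.032 log2 per hour (adjusted p = 0.034). The deposited name gives the asterisk to the 3p arm, yet the 5p arm held only 9.79% of the hairpin at 21 h (6.0 to 14.9%) and held 74.7% at 26 h (70.6 to 78.5%). At 33 h it held 41.4% (35.7 to 47.3%). A higher share late than early follows from the rule, which left the partner below its fold.

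Mir-70_3p was the most abundant of the 9 arms with a ratio of at least 2, with 64535, 64563, 70471 and 66142 at 30 to 33 h, against 20517, 14706, 18970.3 and 19560.5 at 18 to 21 h, a ratio of 3.60. The largest step was from 21 to 22 h, 1.71-fold (1.68 to 1.74), where 166 of the 254 arms were higher as well. Over 22 to 29 h the arm was at 33444, 46424, 50003, 46320.4, 43037, 44142, 54025 and 51155, all above the early and below the late values. The mean of 22 to 25 h had already covered 67.9% of the log2 difference between the windows, and the slope over 22 to 29 h did not pass the test (0.054 ± 0.025 log2 per hour, adjusted p = 0.12). It did under TMM (adjusted p = 0.022) and median-of-ratios scaling and in DESeq2, with adjusted p from 0.0010 to 0.45 over all alternatives tried. The partner Mir-70_5p* was at 22271, 20193, 17365 and 17905 late and 15339.9, 13548, 12913 and 16965 early, a ratio of 1.32. It held 22.6% of the hairpin on average at 30 to 33 h, against 44.4% at 18 to 21 h, with 19.8% as its lowest (32 h) and 48.0% as its highest share (19 h). No late share reached the lowest early one of 40.5%. A lower share of the partner late than early follows from the rule, which left the partner below its fold. Nothing is read from these shares.

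Mir-249_3p was at 1871, 2018, 2174 and 1989 in the late libraries, against 903, 506, 715 and 429 in the early ones, a ratio of 3.15. Its early values alternated from hour to hour, and from 22 to 29 h it was at 943, 1432, 1360.3, 1491, 1254, 1405, 2046 and 1844, a rise of 0.11 ± 0.033 log2 per hour (adjusted p = 0.029). All 8 of these values exceeded the highest early one. Its scarce partner Mir-249_5p* was at 52.8, 72.5, 67.7 and 95.9 late and 59.5, 13.4, 46.4 and 22.3 early, a ratio of 2.04, and was highest at 28 h with 174. The partner was called rising over 22 to 29 h with 0.26 ± 0.059 log2 per hour (adjusted p = 0.0099). Its mean count of 67.4 kept it out of the selection.

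The miR-34 family is known in vertebrates as a target of p53, and there the 5p arm is the one usually loaded. In C. briggsae the deposited name gives the asterisk to the 5p arm. Mir-34_5p* was at 12426, 12299, 12688 and 13364 at 30 to 33 h, against 6649, 7439, 7539 and 9011 at 18 to 21 h, a ratio of 1.66. The 8 hours between were at 8358, 7897, 8890.3, 9665, 10318, 9428, 10302 and 11076, a rise of 0.061 ± 0.016 log2 per hour (adjusted p = 0.017). The more abundant Mir-34_3p was at 24768, 25892, 27039 and 27657 late and 24695, 21599, 22411 and 26519.6 early, a ratio of 1.11 with overlapping windows, and its slope was -0.020 ± 0.022 log2 per hour (adjusted p = 0.50). The 5p arm held 31.9% to 33.4% of the hairpin in the late libraries and 21.2% to 25.6% in the early ones. The rule set this direction as well, since it selected the 5p arm and left Mir-34_3p below its fold, so nothing is read from these shares.

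Mir-785-P1_3p was at 21623, 22488, 22087 and 22279.5 late and 8929, 8549, 9324 and 10485 early, a ratio of 2.37. From 22 to 29 h it was at 11339.6, 11818, 13189, 13719.5, 14346, 15674, 19167 and 20112, each hour above the one before, and the rise of 0.12 ± 0.014 log2 per hour had the smallest adjusted p of the 16 arms (0.00074). Its largest step between hours was 1.22-fold (1.20 to 1.25, from 27 to 28 h).

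Mir-392_3p was at 822, 979, 899 and 1024 at 30 to 33 h and at 360.5, 319, 346 and 535 at 18 to 21 h, a ratio of 2.39. Between 22 and 29 h it was at 492, 451, 483, 476, 493, 458, 584 and 671. Of these 8 values 6 lay below the 21 h value, and the slope did not pass the test (0.059 ± 0.023 log2 per hour, adjusted p = 0.074). It passed with TMM factors, median-of-ratios factors and DESeq2 (0.083, 0.094 and 0.093), with adjusted p from 0.010 to 0.38 over all alternatives tried. Its largest step was from 20 to 21 h, 1.55-fold (1.35 to 1.78), and the ratio without the 21 h library was 2.72.

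Genes of the mir-64 group lie together in a cluster in C. elegans. Mir-64-o2_5p, the most abundant of the 16 arms with 1.32% of all miRNA counts at 30 to 33 h and 0.761% at 18 to 21 h, was at 155990.0, 161634, 172100.0 and 170157 late and 79132, 95400.3, 102447 and 102826 early, a ratio of 1.74. From 22 to 29 h it was at 108801, 132466, 152557, 144418, 135460.0, 127425, 138418 and 136778, with a maximum of these hours at 24 h and a slope that did not pass the test (0.019 ± 0.022 log2 per hour, adjusted p = 0.51). Without the 22 h library the slope was -0.012, whereas it was 0.055 with median-of-ratios factors (adjusted p = 0.029) and 0.056 in DESeq2 (adjusted p = 0.0043), and both of these passed the test. Over all alternatives the adjusted p was 0.0043 to 0.59. Mir-64-o3_5p was at 2548, 2365, 1434 and 2511 late and 893, 931, 1103 and 1142 early, a ratio of 2.18. The 32 h value was low against its neighbours, with a step from 31 to 32 h of 0.607-fold (0.563 to 0.653). In the hours between it was at 1329, 1407, 2003, 1879.8, 1844, 1555, 1938 and 2136, and the slope did not pass the test (0.070 ± 0.030 log2 per hour, adjusted p = 0.091). It passed with TMM factors, median-of-ratios factors and DESeq2 (0.096, 0.11 and 0.11), with adjusted p from 0.00056 to 0.27 over all alternatives tried. Its partner Mir-64-o3_3p, which carries no asterisk either, was the more abundant arm, with 9407, 9173, 10448 and 10956 late and 6331, 7689.9, 7568 and 9537 early, a ratio of 1.28. The 5p arm of Mir-64-o3 held 12.1% to 21.3% of the hairpin in the late and 10.7% to 12.7% in the early libraries. Here too the rule set the direction, since it selected the 5p arm and left the partner below its fold.

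**Figure D4:**
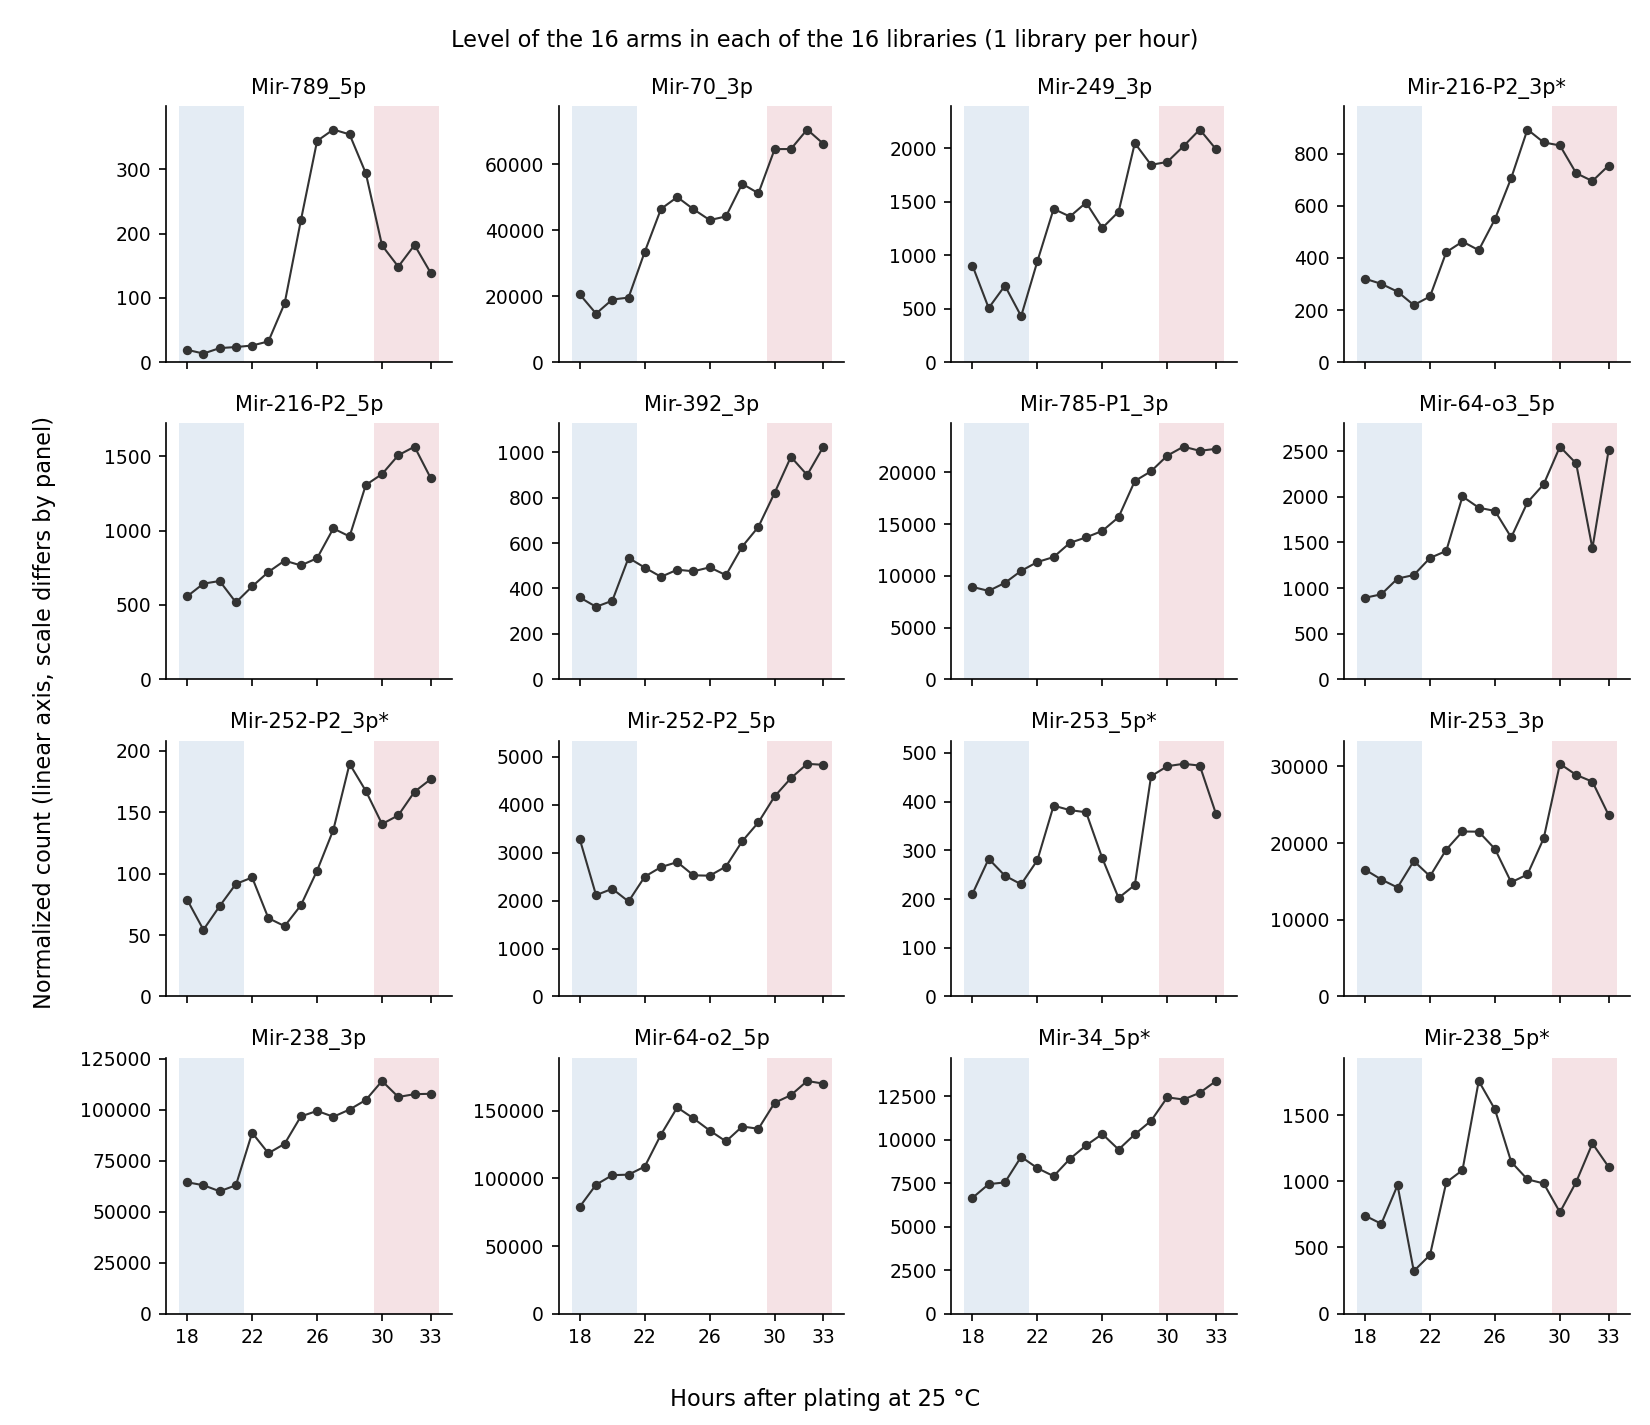
Normalized counts of the 16 arms by hour after plating (linear axes from 0 with a scale per panel, 1 library per hour, no error bars), ordered by the late-over-early ratio, with 30 to 33 h (red) and 18 to 21 h (blue) shaded. The courses differ, with a single peak at 27 h in Mir-789_5p (362), a steady climb in Mir-785-P1_3p and maxima near 24 and 30 h in Mir-253_3p (21511 and 30332).

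The 16 arms thus shared the sign of the late-over-early difference, which the rule set, but differed in when they changed. In 15 of them the lowest hour lay in 18 to 21 h, and Mir-253_5p* was lowest at 27 h. The highest hour lay in 30 to 33 h for 12 arms, in 26 to 29 h for Mir-789_5p and the passenger strands of Mir-216-P2 and Mir-252-P2, and in 22 to 25 h for Mir-238_5p*. In 7 arms all 8 hours from 22 to 29 h lay above the highest early value. The rule favours low early and high late values, and so bears on the hours of the lowest and highest values as well. No share over all arms was computed for any of these counts, so nothing is read from them. The share of the early-to-late log2 difference that was reached by 22 to 25 h ranged from -2.75% (Mir-252-P2_3p*) to 107% (Mir-238_5p*), with a median of 47.6%. By 26 to 29 h it ranged from 18.7% (Mir-253_3p) to 135% (Mir-789_5p), with a median of 73.3%. The largest rise between neighbouring hours fell into 22 h for 4 arms, 23 h for 3 arms, 21, 28 and 29 h for 2 arms each, and 24, 30 and 33 h for 1 arm each. The step from 21 to 22 h also had the largest median change over the 254 arms (0.11 log2, with 166 of them higher). It starts from the 21 h library, which stood farthest from its neighbours. The largest rises of Mir-392_3p and Mir-34_5p* led into that same library. The rise into 33 h was that of Mir-64-o3_5p from its low 32 h value.

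Other arms of the same families were taken by name, whatever their course. Of 16 such rows that are not among the 16 arms, the partners included, 13 were tested over 22 to 29 h, and 2 were called rising and 0 falling, a share near the 15.1% of all arms called rising. The 2 were the partners Mir-249_5p* and Mir-789_3p*. For Mir-785 and Mir-252 the ratios of paralogous arms that averaged 100 or more counts lay on either side of 1 with library totals. Under that scaling the median ratio over the 254 arms was 0.838, and other scalings move the ratios, so 1 does not mark a level course. Mir-785-P2_3p averaged 1275 at 30 to 33 h and 1527 at 18 to 21 h, a ratio of 0.835, while Mir-785-P1_3p was at 2.37. Its own partner Mir-785-P2_5p* had a ratio of 1.55 at a mean count of 15.6, below the count minimum. Mir-252-P1_5p averaged 276 late and 378 early, a ratio of 0.731, against 1.91 for Mir-252-P2_5p, and its partner Mir-252-P1_3p* had a ratio of 0.603 at a mean count of 8.56. Neither Mir-785-P2_3p nor Mir-252-P1_5p had a slope that passed the test (-0.037 ± 0.021 log2 per hour, adjusted p = 0.19, and -0.028 ± 0.020 log2 per hour, adjusted p = 0.28). The difference between paralogues itself was not tested. The 6 other Mir-64 arms all averaged 100 or more counts and had ratios of 1.06 (Mir-64-o1_3p*) to 1.47 (Mir-64-o4_3p). The rule itself places them below the 2 Mir-64 arms that it selected. Reads that fit several places were kept in counting, so reads of near-identical paralogues cannot be told apart, and no other row had counts within 0.1 (log2) of any of the 16 arms in every library.

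**Figure D5:**
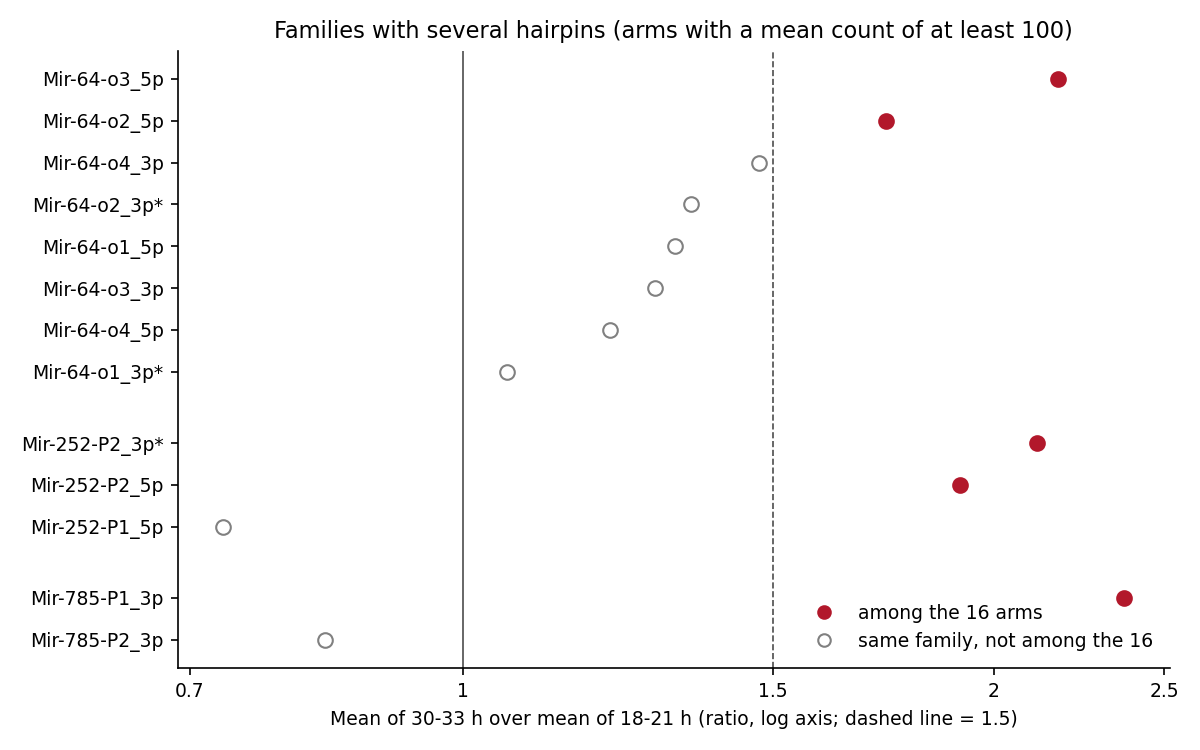
Ratio of the mean at 30 to 33 h to the mean at 18 to 21 h (log axis, dashed line at 1.5) for arms that averaged 100 or more counts in the 3 families with several hairpins. Filled points are arms that the rule selected and open points are their relatives, which the rule places below the dashed line. The relatives lie between 0.731 (Mir-252-P1_5p) and 1.47 (Mir-64-o4_3p).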

How the data were processed

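Small RNA was measured in 16 libraries of whole wild-type C. briggsae, 1 per hour, from TruSeq small RNA libraries (Illumina). The authors deposited raw counts per miRNA arm. They trimmed the 3′ adapter, mapped with QuasR and Bowtie with multi-mapping reads kept, and counted sense reads starting near an annotated 5′ end (MirGeneDB names). Their methods name the C. briggsae assembly WS225 whereas ce10 and Bowtie stand in the submitters' processing notes. Versions of these tools were not given in the sources used here. The authors also deposited log2 values (count over library total, times the mean total, plus a pseudocount of 8), which were recomputed with a largest difference of 0.0005.

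Hours came from the labels. Library totals were 9588599 to 15866144 counts, so 1 read equals 0.787 to 1.30 normalized counts. Trend and rhythm were tested with edgeR 4.0.16 (quasi-likelihood, library total as size, Benjamini-Hochberg over 311 arms, threshold 0.05), in scripts tested on simulated data. P-values rest on scatter about a line across hours, not on replicates. Count ratios and shares carry exact 95% intervals (conditional binomial, Clopper-Pearson) for counting error only, since reads carry no molecular identifiers. Alternatives used TMM and median-of-ratios scaling, DESeq2 1.42.0, limma 3.58.1 on log2 values with pseudocounts of 8 and 1, no low-count filter, no near-duplicate (-v2) rows, periods of 6 and 8 h, added or quadratic terms, and each library left out (R 4.3.3, Python 3.11.15).

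The arms and lists were chosen with earlier results of these data known. By rule, hourly values were given for the 10 most abundant arms, the 10 with the largest ratios, those called rhythmic and hairpins with both arms selected, which together named all 16. No coordinates or sequences were used here.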

Additional observations from a re-analysis of the deposited data

How the results depend on the processing

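All 8 libraries of the trend test are single, so each left-out hour changes the fit. Of the 16 arms, 8 were called rising, against 13 with DESeq2, 13 with median-of-ratios factors, 15 with cosine and sine terms added, and 4 to 9 with 1 library left out. No count over all arms stands beside the 15 with cosine and sine terms, so nothing is read from it. Over all arms, 47 were called rising (76 with DESeq2, 31 to 45 with 1 library left out) and 91 falling (53 with median-of-ratios size factors, 46 to 121 with 1 library left out). No alternative called any of the 16 arms falling. Under TMM, median-of-ratios, DESeq2 and the added cosine and sine terms the slope of Mir-253_5p* was 0.015, 0.026, 0.025 and 0.090, and that of Mir-253_3p was 0.023, 0.034, 0.034 and 0.055 (log2 per hour), each above 0 where the reported slopes were below it. The slope of Mir-253_5p* was -0.12 to 0.017 and that of Mir-253_3p -0.036 to 0.013 with 1 library left out, that of Mir-64-o2_5p -0.012 to 0.029 and that of Mir-238_5p* -0.038 to 0.15, both lowest without the 22 h library. Further arms were called rising under at least 1 alternative, with adjusted p from 0.0010 to 0.45 for Mir-70_3p, 0.029 to 0.99 for Mir-253_3p, 0.047 to 0.98 for Mir-253_5p*, 0.0043 to 0.30 for Mir-252-P2_5p, 0.010 to 0.38 for Mir-392_3p, 0.00056 to 0.27 for Mir-64-o3_5p, 0.0043 to 0.59 for Mir-64-o2_5p and 0.017 to 0.65 for Mir-238_5p*.

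The 7 h rhythm was called for 23 arms (47 with DESeq2, 3 at 6 h, 12 at 8 h, 55 with a quadratic trend, 14 to 29 with 1 library left out). Of the 16 arms it was called for 2, for 1 with TMM, with median-of-ratios factors or without the low-count filter, 0 at 6 h, 0 at 8 h, 5 with a quadratic trend, and 0 to 4 with 1 library left out. The fold rule chose 16 arms, 18 with TMM, 22 with median-of-ratios factors, 14 at a minimum mean count of 200, 15 with medians, and 15 to 17 with 1 library left out. The cause of these differences was not tested.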
